A study of Mus musculus with 8 samples.

Results

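Chemokine ligands and receptors were examined in mouse olfactory bulb after inhalation of diesel exhaust (DE) or of clean air, in animals reared with environmental enrichment or in standard cages. Genes were taken by symbol from the noncontrol spots of the array: names that begin with Ccl, Cxcl, Ccr or Cxcr and a digit, together with Xcl1, Xcr1 and Cx3cl1. This gave 54 genes, 35 ligands and 19 receptors, on 69 probes, out of 34797 gene names on 55681 probes. The rule used names only and no measured value, but it was set with earlier results of these data known.

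The mice were C57BL/6J males killed at 56 days of age. C-C mice lived in a standard laboratory cage and breathed clean air, and C-DE mice lived in the same kind of cage and inhaled DE. EE-C mice grew up from the perinatal period in an enriched cage, a larger one with a running wheel, house, blocks and tubing, and breathed clean air, while EE-DE mice had the enriched cage and DE. Exposure ran over 28 days, from postnatal day 28 to 55, at 90 µg/m3 and 8 h per day. The C-C and C-DE pools each held RNA of 7 mice, the EE-C pool of 8 and the EE-DE pool of 9, and each pool was put on 2 one-colour arrays. The 2 arrays of a group are therefore technical duplicates of 1 pool and carry no variation between mice, so no test of DE, of rearing or of their interaction was possible and no p-value is given. The larger differences below are given with their range over the 4 ways of pairing an array of either pool.

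Chemokines are small secreted proteins that bind G protein-coupled receptors on leukocytes and make these cells migrate toward the source. In the brain they come from microglia, astrocytes, endothelium and, for a few members, from neurons. Cxcl9, Cxcl10 and Cxcl11 are induced by interferons and attract T cells, Ccl2, Ccl7 and Ccl12 attract monocytes through Ccr2, and a few members such as Cx3cl1, Cxcl12 and Cxcl14 are made in healthy nervous tissue.

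A level is the log2 of a probe's background-corrected signal minus the 75th percentile of the noncontrol spots of its array, which lay between 644 and 716 intensity units. Zero is thus a fairly bright spot, and the lowest signal well above background lay between −6.29 and −4.71 on this scale. Probes differ in how well they bind, so levels are compared between arrays for the same probe and never between genes. Noncontrol spots well above background made up 68.0% to 70.6% of all on 7 arrays and 56.7% on array 1 of EE-DE, where the median background was 29 against 21 to 24 elsewhere. All arrays lay on 1 slide, with enriched and standard-cage pools in different columns, so rearing and slide column cannot be told apart. Markers of olfactory bulb neurons were detected for 10 of the 10 genes of that list that the array names, among them Th, Gad1 and Eomes.

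Of the 54 genes, 30 had at least 1 probe with a GenBank or RefSeq accession that was well above background on all 8 arrays without an outlier flag, 22 ligands and 8 receptors on 37 probes. Such genes are called detected here, among them Cxcl11, whose signal could not be given to the gene. The other 24 genes fell short. For 13 of them no probe was well above background on any array: the ligands Ccl20, Ccl22, Ccl26, Cxcl13, Cxcl15, Cxcl2, Cxcl3 and Xcl1 and the receptors Ccr1, Ccr1l1, Ccr4, Cxcr1 and Cxcr2. These include Cxcr2, the receptor of the neutrophil attractants, and Cxcl13, which gathers B cells. The remaining 11 (Ccl1, Ccl11, Cxcl1, Cxcl17, Cxcl9, Ccr2, Ccr3, Ccr6, Ccr10, Cxcr5 and Xcr1) passed on 1 to 7 arrays. The array on which most of them failed was array 1 of EE-DE, the array of higher background, where 48 of the 78 chemokine spots were well above background against 53 to 57 on the others. No member was well above background on both arrays of one pool and on neither array of another, so none was detected in some groups only by that rule. Under the less strict flag of a signal that is positive and significant, 35 genes passed, the added ones being Ccr2, Ccr3, Ccr6, Ccr10 and Cxcl9.

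**Figure D1:**
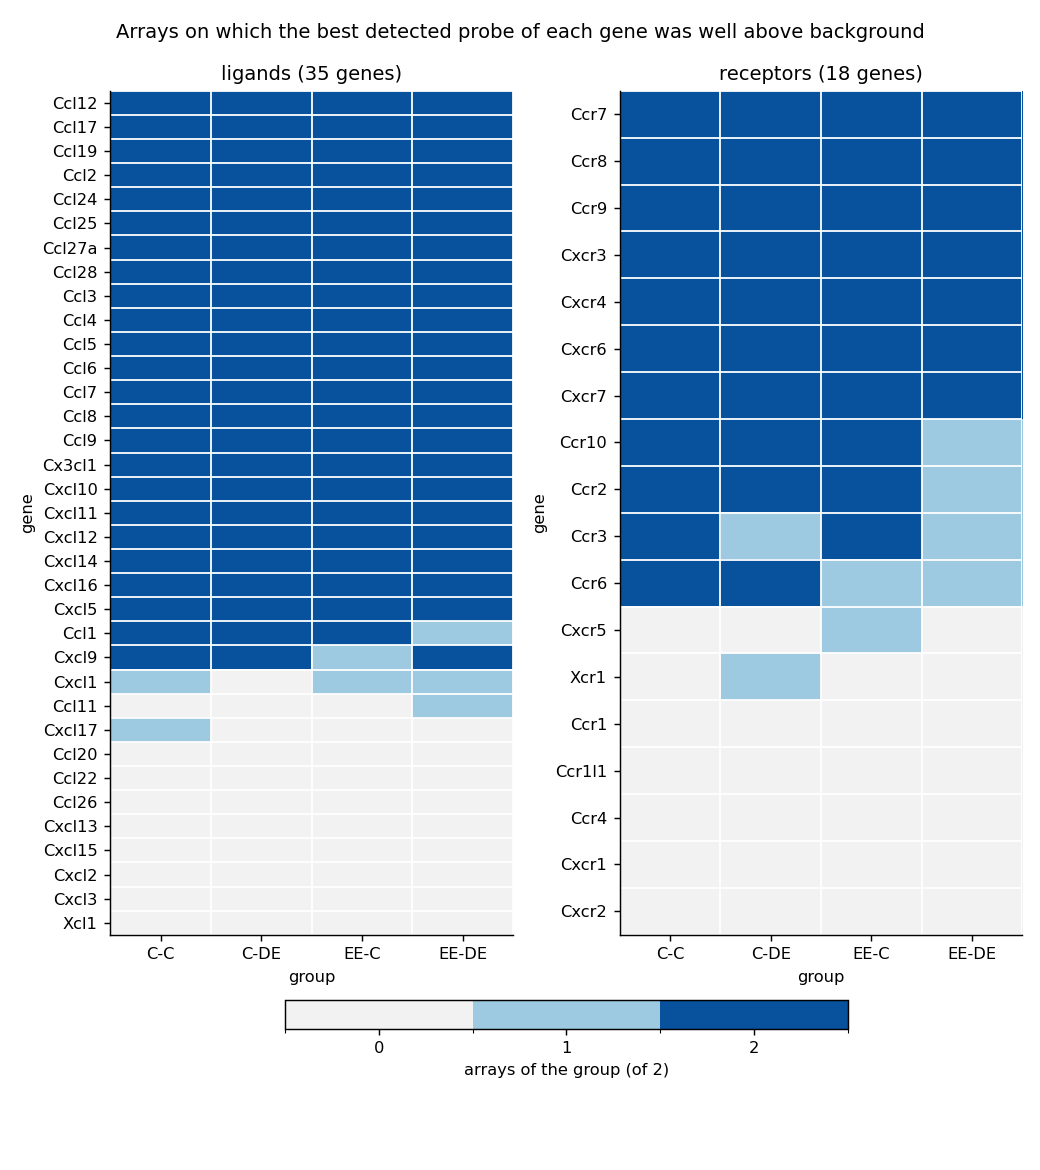
Number of arrays of each group (columns, 2 arrays each) on which the best detected probe of 53 chemokine genes (rows) was well above background, ligands on the left and receptors on the right. The detected members fill all 4 columns, and 13 members of the family have no array in any column.

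The detected ligands reached across the family's roles. Cx3cl1, the membrane-bound fractalkine of neurons, had a level of 6.15 (mean of 8 arrays), Cxcl14 of 3.31, Ccl27a of 3.33, Cxcl12 of 2.72 and Ccl25 of 1.17. Apart from Cxcl11, whose signal is described last, the detected ligands known from inflammation had levels between −4.04 for Ccl24 and −1.04 for Cxcl5. Among receptors, Cxcr7, a scavenging receptor of Cxcl12 now named Ackr3, had a level of 0.13 and Cxcr4, the signalling receptor of Cxcl12, of −1.67. Ccr7, Ccr8, Ccr9, Cxcr3 and Cxcr6, receptors of T cells, dendritic cells and other leukocytes, had levels from −4.27 to −3.25. In bulk tissue, fewer cells of a type and less RNA per cell cannot be told apart.

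Among the 37 detected probes, 1 differed at least 1.5-fold (0.58 on the log2 scale) in C-DE/C-C, here the standard-cage comparison, of exposed with unexposed mice. Over all 21709 detected probes of the array the share was 0.576%, and among the dim ones, with a level under −1, it was 1.29%. In EE-DE/EE-C, the enriched comparison of the same kind, 2 chemokine probes passed, against 0.944% of all probes and 1.86% of dim ones. In EE-C/C-C, the clean-air comparison of rearing, no chemokine probe passed, with 0.825% over all probes. In EE-DE/C-DE, the comparison of rearing under DE, none passed either, with 0.636%. In EE-DE/C-C, the combined comparison of DE and enrichment, 1 passed, with 0.815%. The comparisons share pools, so their values are not independent of each other. The median log2 difference of the chemokine probes was 0.02 in the standard-cage and −0.03 in the enriched comparison, 0.05 and 0.04 in those of rearing and 0.05 in the combined one, while the medians of all probes lay between −0.01 and 0.01. The family median thus lay near that of all probes, and the larger differences were those of single genes.

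**Figure D2:**
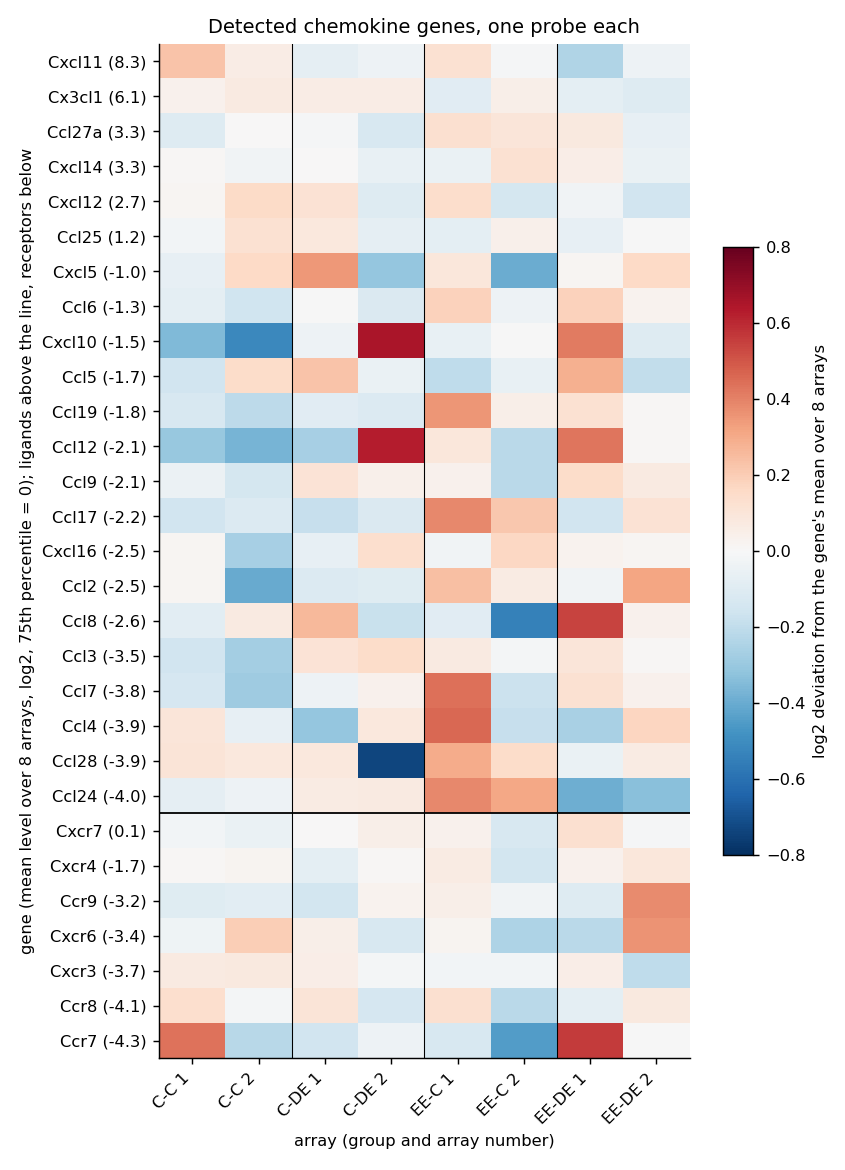
Deviation of 29 detected chemokine genes (rows, brightest probe, mean level in brackets) from their own mean over the 8 arrays (columns) on the log2 scale. Cxcl10 and Ccl12 are high on array 2 of C-DE and array 1 of EE-DE, and Ccl24 is high on both EE-C arrays and low on both EE-DE arrays.

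The probe past the threshold in the standard-cage comparison belonged to Cxcl10, an interferon-induced ligand that draws activated T cells through Cxcr3. Its probe (NM_021274, chr5:92775781-92775840, mm9) had a level of −1.85 and −2.01 on the C-C arrays and of −1.53 and −0.84 on the C-DE arrays. It had −1.55 and −1.49 on the EE-C arrays and −1.08 and −1.59 on the EE-DE arrays. The C-C arrays were the lowest of all 8, and within each exposed pool one array lay well above its duplicate. Cxcl10 was higher by 0.74 in the standard-cage comparison (1.67-fold, pairings 0.31 to 1.17), and the groups did not overlap. In the enriched comparison it was higher by 0.19 with pairings from −0.10 to 0.47, so these pools overlapped. Enrichment alone went with a level higher by 0.40 in the clean-air comparison, in every pairing, and the combined comparison gave 0.59 (1.51-fold). The comparison under DE gave −0.15 with pairings from −0.76 to 0.46.

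The size of these differences hung on single arrays. Without array 2 of C-DE the value of the standard-cage comparison of Cxcl10 was 0.39, below the threshold, and without array 1 it was 1.09. Without array 1 of EE-DE, the array of higher background, the value of the combined comparison was 0.33, and without array 2 it was 0.85. The other Cxcl10 probe of the array, of transcript AK156907, was well above background on no array. Cxcl10 and Ccl12 were among the genes that the study picked from these same arrays, so their array differences are no independent evidence of a response to DE. For Cxcl10 the paper also reports RT-PCR on samples of single mice. There it was significantly higher with DE in standard cages, without a significant effect of DE under enrichment.

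Ccl12, a monocyte attractant of the Ccl2 family, lay just outside the threshold. Its probe (NM_011331, chr11:81916764-81916823, mm9) had a level of −2.36 and −2.42 in C-C, −2.32 and −1.42 in C-DE, −1.96 and −2.27 in EE-C, and −1.62 and −2.04 in EE-DE. As for Cxcl10, array 2 of C-DE and array 1 of EE-DE were the highest of the 8. Ccl12 was higher by 0.52 in the standard-cage comparison (1.43-fold, pairings 0.04 to 1.00), by 0.28 in the enriched comparison (−0.08 to 0.65) and by 0.56 in the combined comparison (0.31 to 0.80). Array 1 of C-DE lay near both C-C arrays, so the value of the standard-cage comparison rests on array 2. With array 2 left out it was 0.07, and with array 1 left out it was 0.96. Ccr2, the receptor of Ccl12, was well above background on 7 arrays and had levels from −5.27 to −4.44, the lowest on array 1 of C-DE.

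The pattern of Cxcl10 over the 8 arrays, which share pools, was most like that of Man2b1 (Pearson's r 0.98), Tns1 (0.97), Yif1b (0.96), Oasl1 (0.95) and Isg15 (0.95), the best of all 16484 detected gene names. The difference in the standard-cage comparison was 0.49 for Isg15, a ubiquitin-like protein, 0.47 for Oasl1, a relative of the oligoadenylate synthases, 0.08 for Man2b1, a lysosomal mannosidase, and 0.06 and 0.13 for Tns1 and Yif1b. Among the other chemokines the closest were Ccl12 (0.92) and Ccl3 (0.84), a macrophage inflammatory protein, and the most opposite was Ccl28 (−0.74). These correlations describe 8 arrays of 4 pools.

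A list of 20 interferon response genes without chemokines followed the same arrays. All 20 were detected, 19 of them were higher in the standard-cage comparison, 18 in the enriched comparison, 18 in the clean-air comparison and 20 in the combined comparison, against 47%, 46.5%, 52.5% and 47.7% of all probes. Their median difference was 0.32, 0.12, 0.24 and 0.35. In the comparison under DE, 12 were higher, against 50% of all probes, with a median of 0.03. The median deviation of the list from each gene's own mean was −0.24 and −0.21 on the C-C arrays, −0.10 and 0.23 on the C-DE arrays, −0.01 and 0.02 on the EE-C arrays, and 0.33 and −0.02 on the EE-DE arrays. Array 2 of C-DE and array 1 of EE-DE were thus the highest for the list as they were for Cxcl10 and Ccl12. Ifit3 was higher by 0.56, Oasl2 by 0.48 and Ifi44 by 0.47 in the standard-cage comparison, and 3 genes of the list (Ifit3, Oasl2 and Ifi27l2a) passed 1.5-fold in the combined comparison, against 0.815% of all probes, and none in the other 4 comparisons. The members were picked with earlier results of these data in view, and the part of interferon signalling in the Cxcl10 values was not tested.

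**Figure D3:**
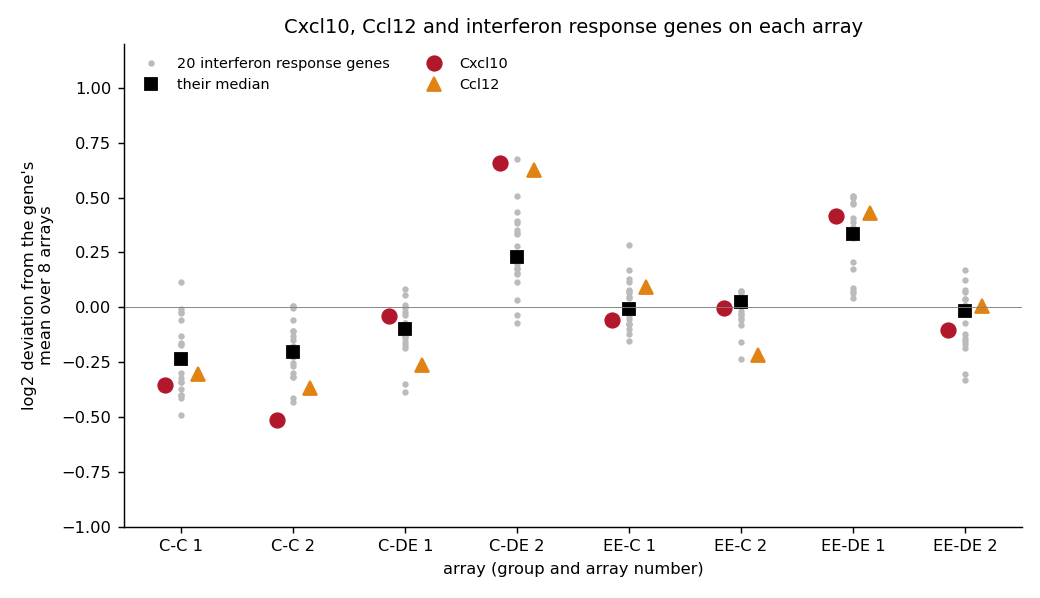
Log2 deviation of Cxcl10 (circles), Ccl12 (triangles) and 20 interferon response genes (grey points, median as a square) from each gene's mean over the 8 arrays (x axis, group and array number). Both chemokines and the list median are lowest on the C-C arrays and highest on array 2 of C-DE and array 1 of EE-DE.

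Of the cytokines known to induce chemokines, Ifng, Tnf, Il1b and Il6 failed the detection rule, while 22 of 26 genes of a list of interferon and NF-kappaB signalling were detected. None of the 22 passed 1.5-fold in the standard-cage comparison, against 0.576% of all probes, and their median was 0.02. The largest value belonged to Irf7, the interferon-induced factor that amplifies interferon production, at 0.32 with pairings from −0.27 to 0.90, so the pools overlapped. Nfkbia, an inhibitor of NF-kappaB, had 0.03.

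The promoters of Cxcl10 and Ccl12 are shown because these genes were high on the same arrays. They are the 250 bases before the gene start in RefSeq on GRCm38.p6, written 5′ to 3′ on the gene's strand, and the capitals mark letters that match the interferon-stimulated response element (GAAA, any 2 bases, GAAA) or the NF-kappaB consensus on either strand. Cxcl10 lies on the minus strand at chr5:92348890-92349139 and Ccl12 on the plus strand at chr11:82101595-82101844.
Cxcl10: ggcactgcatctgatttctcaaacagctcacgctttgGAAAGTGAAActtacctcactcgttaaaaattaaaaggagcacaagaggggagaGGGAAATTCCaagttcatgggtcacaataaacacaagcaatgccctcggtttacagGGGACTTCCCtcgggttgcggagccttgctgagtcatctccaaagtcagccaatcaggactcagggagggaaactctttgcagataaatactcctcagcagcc
Ccl12: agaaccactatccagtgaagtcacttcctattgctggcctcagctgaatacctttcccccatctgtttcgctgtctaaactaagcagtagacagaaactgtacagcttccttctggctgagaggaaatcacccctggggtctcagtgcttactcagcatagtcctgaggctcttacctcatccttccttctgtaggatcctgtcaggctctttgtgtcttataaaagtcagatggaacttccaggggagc
The Cxcl10 window held 1 match to the interferon-stimulated element, 213 to 204 bases before the start, and 2 to the NF-kappaB consensus, at 159 to 150 and 103 to 94 bases before it. The Ccl12 window held neither set of letters. Of 32851 promoters in the table, 2.98% held the first and 3.90% the second. The counts that follow are of genes, each counted if any of its promoters matched, so they differ in unit from the shares of promoters. The table matched 39 of the 54 chemokine genes, of which 3 (Ccl19, Cxcl10 and Cxcl14) held the interferon-stimulated element. The NF-kappaB consensus was in 8 of the 39 (Ccl20, Ccl9, Ccr3, Ccr6, Cxcl1, Cxcl10, Cxcl2 and Cxcl3), of which only Ccl9 and Cxcl10 were detected. The table matched 14 of the 20 interferon response genes, of which 10 held the interferon-stimulated element and 1 the NF-kappaB consensus. The gamma-activated site (TTCNNNGAA), also searched on both strands, was in 4 of the 39 and in 5 of the 14, against 7.02% of all promoters, and in neither window printed here. A match describes letters only.

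In the enriched comparison the 2 chemokine probes past the threshold were those of Ccl24 and Ccl8. Ccl24, also called eotaxin-2, attracts eosinophils through Ccr3. Its probe (NM_019577, chr5:136046667-136046726, mm9) had a level of −4.11 and −4.08 in C-C, −3.97 and −3.96 in C-DE, −3.65 and −3.73 in EE-C, and −4.43 and −4.37 in EE-DE. The duplicates lay within 0.08 of each other in every pool, and none of the pools overlapped. Ccl24 was lower by 0.71 in the enriched comparison, and it was the only chemokine probe at least 1.5-fold different in all 4 pairings (−0.77 to −0.65). Over all probes 0.0783% met that rule in this comparison.

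In the standard cage the direction was the other one. Ccl24 was higher by 0.13 in the standard-cage comparison, in every pairing (0.11 to 0.14). Enrichment went with a higher level in clean air (the clean-air comparison 0.40) and a lower one under DE (the comparison under DE −0.43). Of all 21709 probes, 4.28% had every pairing of one sign in the standard cage and of the other sign with enrichment. Leaving out any single array moved the value of the enriched comparison between −0.74 and −0.67. Normexp background correction, which adds 50 intensity units to each signal and so shrinks the differences of dim probes, gave −0.22. Ccr3, the receptor of Ccl24, was well above background on 6 arrays, with levels from −6.10 to −4.88 and no order by group.

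Ccl8, another monocyte and T cell attractant of the Ccl2 family, acts through Ccr8 in mice. It had a level of −2.72 and −2.56 in C-C, −2.38 and −2.81 in C-DE, −2.72 and −3.18 in EE-C, and −2.09 and −2.60 in EE-DE (NM_021443, chr11:81930108-81930167, mm9). Array 1 of EE-DE, the array of higher background, was the highest and array 2 of EE-C the lowest. Ccl8 was higher by 0.60 in the enriched comparison (1.52-fold, pairings 0.12 to 1.08), just inside the threshold. Without array 1 of EE-DE or without array 2 of EE-C it was 0.35 or 0.38. In the standard-cage comparison the value was 0.05 with pairings from −0.25 to 0.34, so those pools overlapped. Ccr8 had 0.05 in the enriched comparison (−0.21 to 0.30).

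Ccr7, which leads dendritic cells and T cells to lymphoid tissue, lay just outside the threshold in the enriched comparison at 0.57 (0.13 to 1.01). Its levels were −3.83 and −4.48 in C-C, −4.42 and −4.31 in C-DE, −4.40 and −4.71 in EE-C, and −3.71 and −4.27 in EE-DE. The C-C arrays lay 0.66 apart, more than the difference between the enriched pools, and the highest value was on array 1 of EE-DE, the array of higher background. Ccl19, its ligand, had −0.13 in the enriched comparison and 0.37 in the clean-air comparison. The probes of Ccl19 also list further transcripts of near-identical copies, as do those of Ccl27a, so their signal cannot be given to a single gene.

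**Figure D4:**
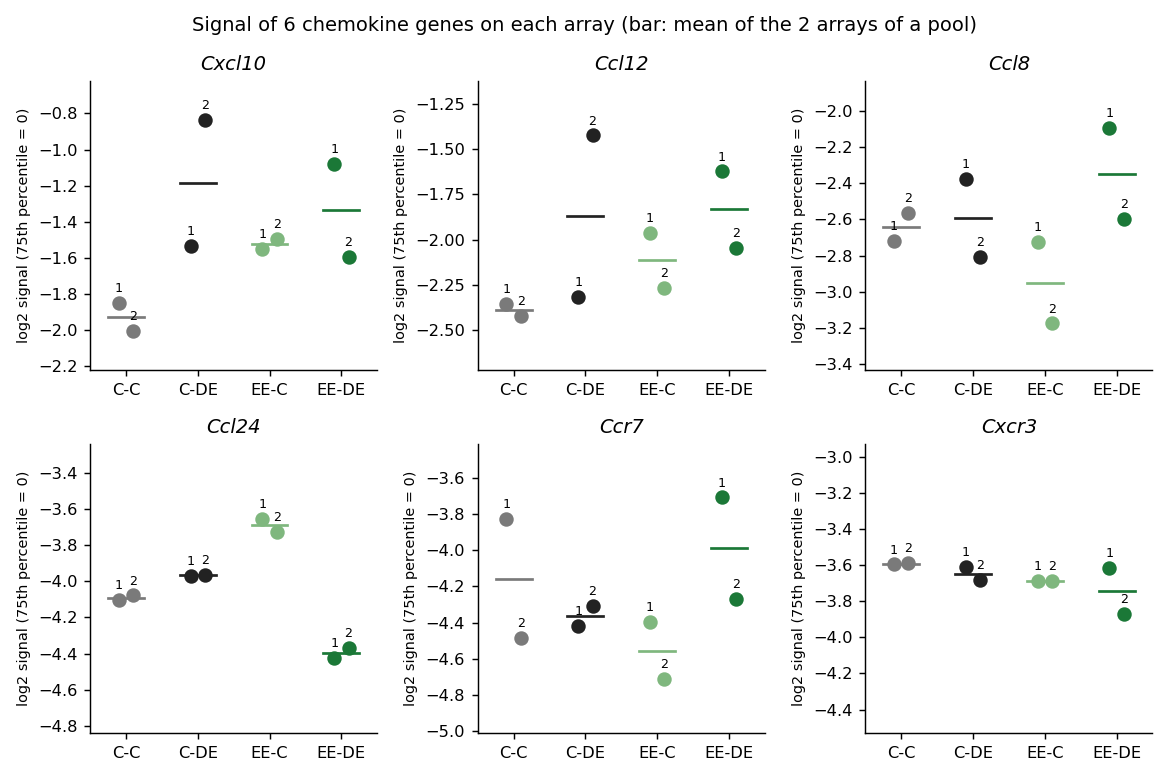
Log2 level (75th percentile of the array at 0) of 6 chemokine genes on each array, labelled 1 and 2, with bars at the mean of the 2 arrays of a pool and the same span of 1.6 on every y axis. Of the 6, only Ccl24 has all duplicates close together and the 4 pools apart, whereas Cxcl10, Ccl12, Ccl8 and Ccr7 have at least 1 pool whose arrays lie far apart.

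The other ligands of monocytes and T cells differed by less. Ccl3 was higher by 0.34 in the standard-cage comparison (0.26 to 0.42), from −3.65 and −3.77 to −3.39 and −3.35, and by 0.02 in the enriched comparison. The C-DE and C-C arrays of Ccl3 did not overlap. Ccl7 had 0.21 in the standard-cage comparison and −0.06 in the enriched comparison, and Ccl9, a ligand of Ccr1, had 0.17 and 0.20. Ccl4 and Ccl5, which attract T cells and monocytes, had −0.13 and 0.09 in the standard-cage comparison and −0.18 and 0.18 in the enriched comparison, with overlapping pools. Ccl6 had 0.06 and 0.03 in these comparisons.

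Ccl2, the archetypal monocyte attractant, had a probe with 9 passing spots on each array and an SD between spots of 0.046 to 0.114. Its level was −2.50 and −2.92 in C-C, −2.63 and −2.62 in C-DE, −2.28 and −2.45 in EE-C, and −2.54 and −2.20 in EE-DE. The C-C arrays lay 0.42 apart, far beyond the SD between spots of an array. Ccl2 had 0.09 in the standard-cage comparison with pairings from −0.13 to 0.31, so the pools overlapped, and the value was −0.12 without array 2 of C-C and 0.30 without array 1. It was higher by 0.34 in the clean-air comparison (0.05 to 0.64), and in the enriched comparison its pairings ran from −0.26 to 0.25.

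Ccl2, Ccl7, Ccl12, Ccl8, Ccl5, Ccl9, Ccl6, Ccl3 and Ccl4 lie together on chromosome 11 (probes from 81850650 to 83478111, mm9). Of these 9 genes, 8 were higher in the standard-cage comparison, with a median of 0.09, against 47% of all probes, and 6 in the enriched comparison, with a median of 0.03, against 46.5%. In the clean-air comparison 7 were higher, with a median of 0.19, against 52.5%, and in the comparison under DE 7, with a median of 0.07, against 50%. In the combined comparison 8 were higher, with a median of 0.26, against 47.7%. Of the detected genes of the other chromosomal groups, 1 of 3 in the CXC ligand group on chromosome 5 was higher in the standard-cage comparison (median −0.02), 1 of 2 beside Cx3cl1 on chromosome 8 (median −0.01) and 2 of 3 in the receptor group on chromosome 9 (median 0.03). In the enriched comparison these were 2 of 3, 0 of 2 and 2 of 3. The chromosome 5 group counts Cxcl11 by its brighter probe, lower in both comparisons, whose signal could not be given to the gene. The other Cxcl11 probe had 0.13 in the standard-cage and 0.15 in the enriched comparison. Apart from Ccl8 none of the 9 genes on chromosome 11 passed 1.5-fold in any of the 5 comparisons, against 0.576% to 0.944% of all probes.

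Ligands of healthy tissue came next. Cx3cl1 had 0.01 in the standard-cage comparison and −0.07 in the enriched comparison, and its values on the 8 arrays lay between 6.04 and 6.22. Cxcl14 had −0.02 and −0.03, and Cxcl12 −0.08 and −0.09. Ccl25, the ligand of Ccr9, had −0.04 and −0.01, and Ccl27a, a skin chemokine that binds Ccr10, had −0.02 and −0.11. Cxcl16, the ligand of Cxcr6, had 0.16 and −0.05, and Cxcl5, a neutrophil attractant, −0.02 and 0.24. Ccl28, an epithelial ligand of Ccr10 and Ccr3, had −0.42 in the standard-cage comparison, where array 2 of C-DE stood at −4.68 and the other 7 arrays between −4.00 and −3.65. Without that array the value was −0.01.

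Ccl17, which attracts T cells through Ccr4, was higher by 0.43 in the clean-air comparison (0.33 to 0.54), the largest difference of a detected chemokine gene in that comparison. Its levels were −2.40 and −2.36 in C-C and −1.86 and −2.03 in EE-C. In C-DE and EE-DE they were −2.44 and −2.37, and −2.40 and −2.13. Ccl17 was lower by 0.32 in the enriched comparison (−0.54 to −0.10) and by 0.02 in the standard-cage comparison. Of the 37 chemokine probes, 14 of 11 genes had both EE-C arrays above both C-C arrays, against 20.2% of all probes, and 2 had both below, against 17.5%. The 14 include 3 probes of Ccl27a and 2 of Ccl19, which share targets. In the standard-cage comparison 11 probes of 10 genes had both exposed arrays above, against 18.5%, and 4 had both below, against 22.4%. In the enriched comparison 3 had both above, against 14.6%, and 7 both below, against 19.6%.

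**Figure D5:**
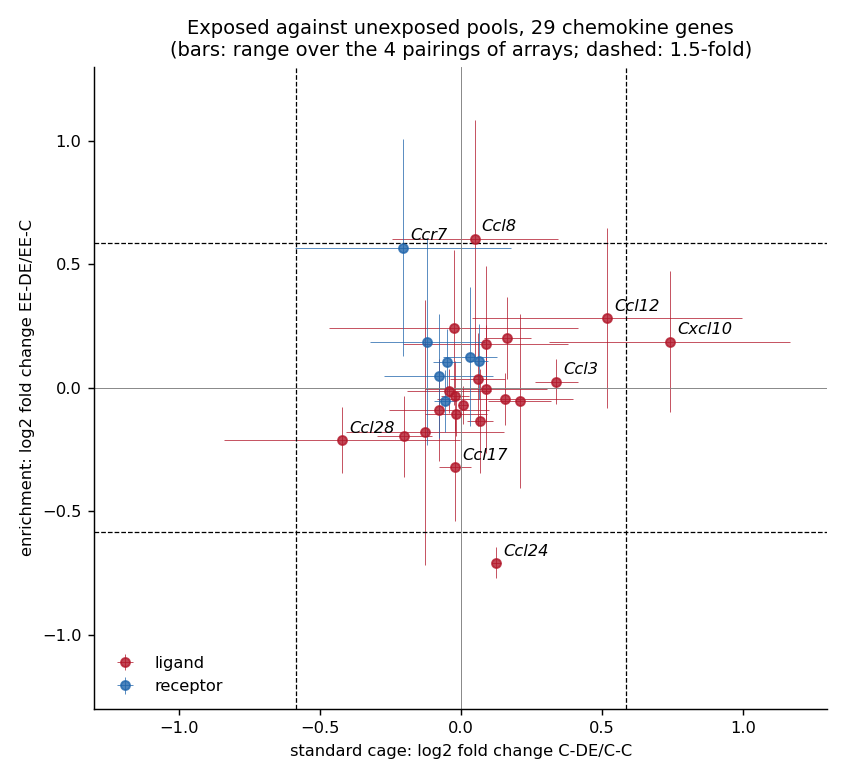
Log2 fold change of 29 detected chemokine genes in C-DE/C-C (x axis, standard cage) and EE-DE/EE-C (y axis, enrichment), ligands in red and receptors in blue, with bars for the range over the 4 pairings and dashed lines at 1.5-fold. Cxcl10 at 0.74 lies past the line on the x axis, Ccl8 at 0.60 and Ccl24 at −0.71 on the y axis, and most other genes lie near 0.

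Detected receptors differed little apart from Ccr7. Cxcr3, the receptor of Cxcl10, had −0.06 in the standard-cage comparison and −0.05 in the enriched comparison, with levels from −3.87 to −3.59. Cxcr4 had −0.05 and 0.10, Cxcr7 0.06 and 0.11, Cxcr6 −0.12 and 0.19, and Ccr9 0.03 and 0.13. No receptor passed 1.5-fold in any of the 5 comparisons. Of all probes 0.576% to 0.944% passed, so this count says little of 8 probes. The median of the 8 receptor probes was −0.05 in the standard-cage comparison and 0.11 in the enriched comparison, beside 0.05 and −0.05 for the 29 ligand probes.

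Other genes of the chemokine system, from a list of binding partners, scavengers and modulators, were detected for 16 of the 19 that the array names. None passed 1.5-fold in any comparison, against 0.576% to 0.944% of all probes. The median was −0.03 in the standard-cage comparison and 0.02 in the enriched comparison. Cx3cr1, the microglial receptor of Cx3cl1, had −0.04 and 0.05, and Darc, a decoy receptor of the erythrocyte and the endothelium, 0.14 and 0.09. Of 22 genes of signalling downstream of the receptors 19 were detected, with medians of −0.03 and −0.02. Pik3cg, the kinase that G protein subunits activate in leukocytes, had −0.50 in the standard-cage comparison. It was the only one past 1.5-fold in any comparison, at 0.62 in the comparison under DE, where 0.636% of all probes passed.

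Markers of the cells that carry chemokines or their receptors differed in several ways. Of the T cell list, Cd3d, Cd3g, Cd8a and Cd8b1 were not detected and 3 of 7 were. The log2 of the summed T cell markers lay between 1.74 and 1.78 in C-C, 1.61 and 1.69 in C-DE, 1.78 and 1.97 in EE-C, and 1.71 and 1.86 in EE-DE. All 9 microglial markers were detected, with a median of 0.01 in the standard-cage comparison and −0.04 in the enriched comparison. Their summed level lay between 6.29 and 6.42 in C-C, 6.18 and 6.20 in C-DE, 6.28 and 6.31 in EE-C, and was 6.24 on both EE-DE arrays. A summed level follows its brightest probes, here above all Itgam, which had −0.32 in the standard-cage comparison. Of the 9 markers, 5 were higher in that comparison.

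Markers of neutrophils and marrow, 8 of 8 detected, had a median of −0.66 in the standard-cage comparison and −0.33 in the enriched comparison, and those of supporting cells of the olfactory mucosa, 7 of 7 detected, −1.25 and 0.74. The summed level of the neutrophil list was 2.17 to 2.44 in C-C, 1.502 to 1.66 in C-DE, 1.90 to 3.30 in EE-C and 1.95 to 2.59 in EE-DE. That of the mucosal list was 2.81 to 3.603 in C-C, 1.88 to 2.21 in C-DE, 2.12 to 3.53 in EE-C and 3.33 to 4.02 in EE-DE. Array 1 of EE-C, the highest for the neutrophil list, was the highest of the 8 for 10 of the 37 chemokine probes. These were probes of Ccl17, Ccl19, Ccl24, Ccl27a, Ccl28, Ccl4, Ccl7 and Cxcl12, some with more than 1 probe. The share was near the 22.7% of all probes. The part of these cells in the chemokine values was not tested.

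The signal of Cxcl11 could not be given to the gene. Its brighter probe had a level of 8.32. The part of this probe that recurs in other probes is shown because it bears on what was measured, as 30 bases from base 14 of the probe, with no capitals set.
Cxcl11 probe: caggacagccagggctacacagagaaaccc
The same 30 bases, on either strand, occur in 5 other probes of the array, assigned to Elk1, Glrx2, Med16 and 2 uncharacterized transcripts, with levels from 1.19 to 9.07. They also occur letter for letter in 8 of the 32851 promoters, and near matches were not counted. The other Cxcl11 probe had a level of 2.79, and a stretch of 13 of its bases occurs in 5 other probes, with levels from −5.70 to 8.62. The 2 probes went opposite ways, by −0.20 and 0.13 in the standard-cage comparison and by −0.20 and 0.15 in the enriched comparison. Cxcl11, Cxcl10 and Cxcl9 share the receptor Cxcr3, and Cxcl9 had 2 probes that were well above background on 7 arrays, with levels from −6.07 to −3.84 and from −5.20 to −4.13. The lowest value of both Cxcl9 probes was on array 1 of EE-C.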

How the data were processed

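The authors deposited intensity values from Agilent Feature Extraction 10.7.3.1 on one-colour arrays, with local background subtracted and spatial trends removed within each array but no scaling between arrays. The series table of the authors holds log2 values scaled to the 75th percentile and centred on each probe's median over the 8 arrays, and served as an alternative. Flags deposited by the authors for background and outliers were used as filters. Columns of the authors' own comparisons were not used.

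Here the 75th percentile of the log2 signal over noncontrol spots was subtracted. Spots with a GenBank or RefSeq accession, well above background on all 8 arrays and without an outlier flag were kept, and spots of a probe were averaged, giving 21709 probes. A gene with several passing probes is given by its brightest. Differences are those of the means of the 2 arrays of a pool, called at 1.5-fold, with no test. Python 3.11.15, numpy 2.4.6, pandas 2.3.3, scipy 1.17.1, matplotlib 3.10.9, R 4.3.3 and limma 3.58.1 were used, and the calling was tested on simulated data.

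Probe positions follow mm9 per the file headers. The RefSeq table named 56 of 62 gene and accession pairs, and 55 had the same symbol. The members, lists and alternatives were chosen with earlier results of these data known. Members with a passing probe are named, apart from results not reported here, members past the threshold or opposed between housings have their value on every array, and the genes most like Cxcl10 are the 5 of highest correlation. Lists of further cell types (B cells, red blood cells, endothelium, pericytes and meningeal fibroblasts, astrocytes, olfactory ensheathing cells, olfactory sensory neurons, bone) had medians of −0.07, −0.20, 0.01, −0.17, −0.08, −0.01, −0.20 and −0.55 in the standard-cage comparison and of −0.07, −0.03, 0.06, −0.01, −0.03, 0.06, 0.10 and 0.36 in the enriched comparison.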

Additional observations from a re-analysis of the deposited data

Results flagged for a closer look

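Ccl24 had every pairing of arrays higher in the standard-cage comparison (0.13) and every pairing lower in the enriched comparison (−0.71), a difference between the housings of −0.83 on the log2 scale. The difference was not tested, since each group is 1 pool.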

How the results depend on the processing

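The number of chemokine probes past 1.5-fold was 1 in the standard-cage comparison, 2 in the enriched one, 0 in both comparisons of rearing and 1 in the combined one. With normexp correction it was 0 in the standard-cage, enriched and combined comparisons, where Cxcl10 had 0.54 and 0.41, Ccl8 0.40 and Ccl24 −0.22, all in the same direction. At 2-fold it was 0 in these comparisons. With 1.5-fold required in all 4 pairings it was 0 in the standard-cage and combined comparisons and 1 in the enriched one. The mean of linear signals gave 2 in the standard-cage comparison, Ccl12 being added. The less strict flag gave 4 in the enriched comparison, Ccr6 and Ccr10 being added, and 1 in the clean-air comparison, Cxcl9, which a filter on 1 compared pool also gave (1). The brighter 75% of probes gave 0 in the enriched comparison, since Ccl8 and Ccl24 were among the dimmer ones. Leaving out 1 array gave 0 to 3 in the standard-cage comparison, 1 to 3 in the enriched one, 0 to 1 in each of those of rearing and 0 to 2 in the combined one. No value past 1.5-fold changed sign under the settings run. Quantile normalization, the other scales, the authors' table, the filters on outliers and slide areas and leaving out the Cxcl11 probes changed no count by over 1.5 times. The last, and the mean over all probes of a gene, were added after seeing the data. No paired analysis was possible because the results come from no test, and the 2 arrays of a group are duplicates of 1 pool. A replicate block on the array number leaves a difference of means as it is by construction, so the count of 1 in the standard-cage comparison under it is no check. The arrays with least signal over background limit what can be said of dim receptors.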
